A study of Mus musculus with 6 samples.

Results

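Promoter-flank peaks are the open chromatin regions that lie between 1 and 3 kb from the nearest transcription start site. They were taken from the deposited peak table as every distinct peak annotated Promoter (1-2kb) or Promoter (2-3kb), which gave 8156 of 92864 annotated peaks (8.78%). Accessibility was measured by ATAC-seq, in which a transposase inserts sequencing adapters into open DNA, in 2 cell populations sorted from brain tumours, with 3 libraries each. The tumours were of SB28, a mouse glioma line implanted orthotopically and described as isogenic, and the genotype of all 6 libraries is given as WT. Microglia (MG), macrophages that reside in the brain, were sorted as F4/80+ CD11b+ cells with low CD45, low or absent LY6C and CD49d and no LY6G. The other population, bone marrow derived macrophages (BMDM), which enter the tumour from the blood, were sorted as F4/80+ CD11b+ CD45+ cells with low or absent LY6C, no LY6G and high CD49d. The sources used here do not give the age or number of the mice, there was no tumour-free group, and the SB28 tumours stand for 1 line. The study's design text names the effect of metabolism on gene expression as its purpose. Nothing in the labels states that each library is from its own animal. The p-values therefore measure the spread among these libraries alone, and part or all of that spread may be technical.

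The start site of an active gene carries a nucleosome-depleted core where the transcription machinery assembles. The flanks beside it hold the first nucleosomes, proximal regulatory elements and, in many genes, the start sites of other transcripts. Elements away from the start site tend to be more specific to a cell type than the core itself. In macrophages the lineage factor PU.1 and partners of the AP-1, C/EBP, IRF and RUNX families are known to bind such elements.

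Of 7944 flank peaks compared with RefSeq windows, 66 touched a window from 250 bases before to 50 after a gene's start (RefSeq, GRCm38.p6). In 8 of them the window belonged to the gene the peak was annotated to. Among the 66, 5 peaks were called different between the groups, 2 higher in BMDM and 3 higher in MG. Of all peaks tested 5.33% and 1.54% were called in these directions. The upstream DNA under these 5 peaks is shown. In RefSeq it lies just before a start site, although the deposited annotation places each peak 1 to 3 kb from its nearest start. The peaks of Hspb3, Postn and B3gnt4 were higher in MG, and those of Iqgap2 and Arhgef18 were higher in BMDM. Each sequence runs 5′ to 3′ on the strand of the window's gene, and capitals mark a match, on either strand, to 1 of 10 short motifs. Only the Postn and B3gnt4 windows belong to the peak's own gene. They lie at chr13:113660661-113660819 on the + strand (Hspb3 peak, window of Gm34586), chr3:54359017-54359219 on the + strand (Postn), chr5:123508232-123508481 on the + strand (B3gnt4), chr13:95684824-95685073 on the + strand (Iqgap2 peak, window of Gm48745) and chr8:3355710-3355959 on the - strand (Arhgef18 peak, window of Gm30369).
Hspb3 peak: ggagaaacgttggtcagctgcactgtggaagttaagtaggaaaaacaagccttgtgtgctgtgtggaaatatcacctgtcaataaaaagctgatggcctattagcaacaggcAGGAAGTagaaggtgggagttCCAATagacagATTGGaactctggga
Postn peak: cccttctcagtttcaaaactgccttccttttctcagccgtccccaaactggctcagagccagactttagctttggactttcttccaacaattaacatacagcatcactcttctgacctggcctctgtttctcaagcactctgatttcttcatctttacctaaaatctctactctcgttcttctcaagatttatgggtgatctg
B3gnt4 peak: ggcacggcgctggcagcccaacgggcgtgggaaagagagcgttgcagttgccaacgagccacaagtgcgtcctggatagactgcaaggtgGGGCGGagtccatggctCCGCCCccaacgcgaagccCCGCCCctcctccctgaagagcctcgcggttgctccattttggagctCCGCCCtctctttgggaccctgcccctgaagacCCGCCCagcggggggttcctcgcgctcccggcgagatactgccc
Iqgap2 peak: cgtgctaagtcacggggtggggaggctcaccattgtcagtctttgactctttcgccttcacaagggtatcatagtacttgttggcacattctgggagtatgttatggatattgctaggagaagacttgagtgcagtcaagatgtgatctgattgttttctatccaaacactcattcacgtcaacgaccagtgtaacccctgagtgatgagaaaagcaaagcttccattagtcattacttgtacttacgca
Arhgef18 peak: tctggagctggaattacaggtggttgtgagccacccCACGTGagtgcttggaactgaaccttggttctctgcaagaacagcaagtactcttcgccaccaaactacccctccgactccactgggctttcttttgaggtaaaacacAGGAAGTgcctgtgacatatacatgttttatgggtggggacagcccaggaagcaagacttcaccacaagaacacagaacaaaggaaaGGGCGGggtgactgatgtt

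The motifs searched were AP-1 (TGANTCA), C/EBP (TTGCNNAA), ETS (AGGAAGT), RUNX (TGTGGTT), IRF (GAAANNGAAA), MEF2 (CTANNNNTAG), the E-box CACGTG, the TATA element (TATAAA), the CCAAT element and the GC box (GGGCGG), and none of the printed matches overlap. Over all 32851 windows, 7.69% held the ETS letters, 6.02% the E-box, 33.8% CCAAT and 32.7% the GC box. The B3gnt4 stretch had 68.0% G and C, 21 CpG and 5 GC boxes. The Hspb3 stretch had 45.3% G and C with 1 ETS and 2 CCAAT matches, and the Arhgef18 stretch held 1 ETS, 1 E-box and 1 GC box match. The Postn and Iqgap2 stretches held no match to these letters.

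In these 5 peaks all libraries of the groups were apart. The deposited distances of the B3gnt4 and Postn peaks refer to another start than the RefSeq one under the peak. B3gnt4 encodes a glycosyltransferase, and its peak was annotated 1513 bp upstream. It held 177, 210 and 185 normalized counts in MG 1 to 3 and 97.2, 84.2 and 59.8 in BMDM 1 to 3. Postn encodes the matrix protein periostin. Its peak, annotated 1890 bp upstream, held 136, 168 and 131 in MG against 59.5, 44.7 and 54.3 in BMDM. The Hspb3 peak, 2507 bp downstream of the start site, held 171, 109 and 106 in MG against 29.8, 13 and 38.0 in BMDM. Each of the 3 was higher in every MG library than in any BMDM library. The Iqgap2 peak, upstream of a gene for a scaffold protein of the actin cytoskeleton, held 57.1, 19.7 and 33.0 in MG against 135, 128 and 92.4 in BMDM. The Arhgef18 peak 1078 bp downstream of its start held 21.4, 21.9 and 22.4 in MG against 97.2, 79.6 and 54.3 in BMDM. Both were higher in every BMDM library.

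A second set of windows is shown for genes whose flank peaks and start-site peaks differed by unequal amounts, as described further down. Those of Neo1 and Naaa lie under start-site peaks that were lower in BMDM while the flank was higher, and those of Pglyrp1 and Sdcbp2 under start-site peaks that were higher in BMDM while the flank was lower. Each is the 250 bases before the start, with capitals as above. They lie at chr9:59036442-59036691 on the - strand (Neo1), chr5:92278182-92278431 on the - strand (Naaa), chr7:18884440-18884689 on the + strand (Pglyrp1) and chr2:151572373-151572622 on the + strand (Sdcbp2).
Neo1 window: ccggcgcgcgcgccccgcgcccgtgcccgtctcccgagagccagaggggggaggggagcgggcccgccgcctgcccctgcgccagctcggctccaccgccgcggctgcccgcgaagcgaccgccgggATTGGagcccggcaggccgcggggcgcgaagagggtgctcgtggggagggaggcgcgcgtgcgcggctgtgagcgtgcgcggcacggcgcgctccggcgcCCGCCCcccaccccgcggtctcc
Naaa window: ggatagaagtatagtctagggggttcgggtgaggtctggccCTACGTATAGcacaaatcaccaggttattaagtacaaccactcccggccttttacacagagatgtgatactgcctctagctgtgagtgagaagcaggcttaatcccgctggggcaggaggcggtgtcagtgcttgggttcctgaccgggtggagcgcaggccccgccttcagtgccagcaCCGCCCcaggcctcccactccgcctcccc
Pglyrp1 window: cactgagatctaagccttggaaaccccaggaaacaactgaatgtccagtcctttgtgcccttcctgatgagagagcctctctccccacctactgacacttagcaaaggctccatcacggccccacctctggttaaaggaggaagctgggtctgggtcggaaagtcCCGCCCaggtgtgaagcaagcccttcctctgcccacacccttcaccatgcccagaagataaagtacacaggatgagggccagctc
Sdcbp2 window: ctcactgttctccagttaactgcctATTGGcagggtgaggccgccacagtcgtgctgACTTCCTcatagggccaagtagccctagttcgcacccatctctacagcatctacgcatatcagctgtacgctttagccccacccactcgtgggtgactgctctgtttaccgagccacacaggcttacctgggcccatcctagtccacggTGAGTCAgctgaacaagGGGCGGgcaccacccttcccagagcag

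The Neo1 and Naaa windows had 83.2% and 59.2% G and C, with 45 and 10 CpG. Those of Pglyrp1 and Sdcbp2 had 55.6% and 58%, with 3 and 9 CpG. Windows not shown overlapped these values. Gpx8 and Map1b, whose flank gained over the start site in BMDM, had 44.8% and 66.4%. Lrrk2, whose flank did so in MG, had 67.6%. Naaa held 1 MEF2 and 1 GC box match, and Sdcbp2 1 AP-1, 1 ETS, 1 CCAAT and 1 GC box match. Over all windows 6.75% held the AP-1 letters and 3.20% the MEF2 letters. Across genes with a tested flank peak the window had a median of 58.8% G and C (4416 windows). The median was 56.4% for genes with a flank peak called higher in BMDM (294 windows) and 62.4% for those with one called higher in MG (63 windows). For genes called by the flank to start-site ratio, as the windows shown here were, the order was the other way. Their median was 62.4% with 17 CpG for a ratio higher in BMDM (169 windows). It was 56% with 5 CpG for a ratio higher in MG (37 windows). These medians are descriptions and were not tested.

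The flank peaks were narrow and of moderate height. Their median width was 510.5 bp (quartiles 344 and 722) against 1071 bp for start-site peaks, those within 1 kb of a start. Per kilobase of peak the median was 102 normalized counts, against 208 for start-site peaks and 71.8 for intronic peaks. Of the 8156 peaks 4486 lay at 1 to 2 kb and 3670 at 2 to 3 kb, with 3875 upstream and 4281 downstream of the start. They were annotated to 5938 genes, of which 4397 had 1 flank peak, 1111 had 2 and 430 had 3 or more. For 82.9% of flank peaks the same gene also had a start-site peak. Protein-coding genes accounted for 7372 flank peaks, lincRNA genes for 213 and miRNA genes for 171. The deposited annotation gives these peaks a promoter class and no exon or intron.

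The rule's limits fell in a continuous run of distances. The nearest peak just outside 1 kb was that of Ptpn1 at 1000 bp upstream, with means of 372 in MG and 441 in BMDM, and the nearest inside was that of 4931428F04Rik at 1001 bp upstream, with 186 and 145. At the outer limit the Glod4 peak at 3000 bp, with 22.1 and 19.5, was inside and the Aldh1b1 peak at 3001 bp, with 123 and 124, was outside.

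The libraries differed in depth, from 4910448 reads in peaks in BMDM 3 to 23601865 in MG 2, and 7877 flank peaks passed a mean of at least 10 normalized counts while 279 did not. MG 1 and MG 2 were the least alike of the MG libraries. Over the tested flank peaks the log2 values of MG 1 correlated with those of MG 2 at r = 0.65, below its r of 0.79 to 0.82 with the 3 BMDM libraries, and with MG 3 at 0.86. MG 2 correlated with the BMDM libraries at 0.58 to 0.67 and with MG 3 at 0.90. The BMDM libraries correlated with each other at 0.87 to 0.91. These correlations are descriptions across peaks that share each library's depth and composition. The summed flank counts of the microglia identity list were 5271, 3202 and 3614 in MG 1 to 3 against 1962 to 2914 in BMDM. Those of the monocyte and macrophage identity list were 1522, 1091 and 1041 in MG 1 to 3 against 1629 to 3236 in BMDM. MG 1 was the highest MG library for both lists, and neither sum overlapped between the groups.

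With all 6 libraries more flank peaks were called higher in BMDM than in MG. Of 7877 tested flank peaks 417 were called higher in BMDM (5.29%), where 5.33% of all peaks tested were, and 90 were called higher in MG (1.14%), where 1.54% of all peaks tested were, by limma at a Benjamini-Hochberg adjusted p under 0.05. Both shares lay close to those of all peaks. No called flank peak had overlapping groups. Start-site peaks were called higher in BMDM in 2.12% and higher in MG in 3.25%, so that the flanks stood nearer to introns, at 6.78% and 0.892%, than to the start sites beside them, a difference between classes that was not tested. The groups did not overlap, with BMDM above MG, for 16% of flank peaks against 17.0% of all peaks, and with MG above BMDM for 13.2% against 12.9%. Fewer cells of a type and less open DNA per cell cannot be told apart in these bulk libraries.

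Differences are given on the log2(normalized count + 1) scale as BMDM minus MG, relative to the median of all peaks, while tests used the values before that shift. The median peak stood at -0.14 with the authors' size factors and at 0.05 when libraries were scaled to their totals. The median flank peak lay 0.02 above the median of all peaks (quartiles -0.45 and 0.61). The median start-site peak lay at -0.18 and the median intronic peak at 0.17. Calls depended on single libraries. Without MG 1, 911 flank peaks were called in favour of BMDM and 941 in favour of MG, in a fit that shared its variance across peaks with 211 prior degrees of freedom in place of 6.08. Without MG 2 there were 695 and 197, and without BMDM 3 there were 191 and 20. Without MG 3, BMDM 1 or BMDM 2, limma called 0 flank peaks in either direction, with 778 to 875 at an unadjusted p under 0.05 in favour of BMDM and 389 to 522 in favour of MG. The authors' deposited table, from DESeq2, called 689 and 377 with all libraries.

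**Figure D1:**
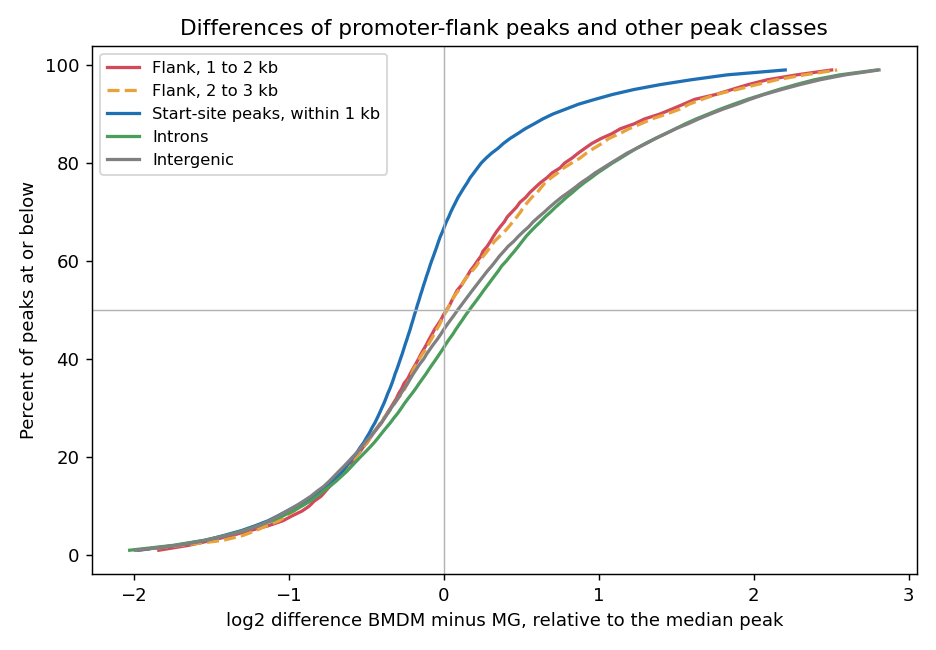
Cumulative percent of tested peaks (vertical axis) against the log2 difference BMDM minus MG relative to the median of all peaks (horizontal axis, 1st to 99th percentile). The flank curves at 1 to 2 kb and 2 to 3 kb nearly coincide, with medians of 0.02 in both, between the start-site curve at -0.18 and the intronic curve at 0.17.

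The shares called were close at both distances. At 1 to 2 kb 5.28% passed as higher in BMDM and 1.15% as higher in MG, and at 2 to 3 kb 5.31% and 1.13%. Upstream of the start 202 peaks (5.41%) passed as higher in BMDM and 52 (1.39%) as higher in MG. Downstream the counts were 215 (5.19%) and 38 (0.917%). In 500 bp steps the share called higher in MG ran from 0.541% at 2500 to 3000 bp downstream to 1.71% at 1000 to 1500 bp upstream, and the share called higher in BMDM from 4.62% to 6.07%. The difference between sides was not tested. By gene type, 19 of 198 lincRNA flanks (9.60%) and 9 of 166 miRNA flanks (5.42%) passed in favour of BMDM. For protein-coding flanks this share was 5.11% and for antisense flanks 7.96%. In favour of MG the shares were 0.505% for lincRNA, 1.2% for miRNA, 1.18% for protein-coding and 0% for antisense flanks. Over all peaks tested 5.33% passed in favour of BMDM and 1.54% in favour of MG. Differences between gene types were not tested.

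The largest differences in favour of BMDM, among peaks of at least the median count, lay in flanks of 12 genes with varied roles. Fbxl5, whose product senses iron and targets its regulator for degradation, had a peak at chr5:43824383-43824973, 2745 bp upstream, with 5.55, 23.5 and 14.6 normalized counts in MG 1 to 3 and 71.4, 131 and 109 in BMDM 1 to 3. The lowest BMDM library stood above the highest MG library, and the difference was 3.04 (SE 0.51, limma adjusted p = 0.026). The Naaa peak at chr5:92270491-92271183, 1365 bp downstream of the start of a lysosomal lipid amidase gene, held 10.3, 20.2 and 13.6 in MG against 115, 126 and 70.7 in BMDM. Its difference was 2.88 (SE 0.40, limma adjusted p = 0.026), with no overlap. Srgn encodes serglycin, the proteoglycan core of secretory granules. Its peak at chr10:62530262-62530866, 2811 bp upstream, held 19.8, 14.2 and 16.5 in MG against 143, 107 and 92.4 in BMDM, a difference of 2.81 (SE 0.34, limma adjusted p = 0.026). The MG libraries were close together here and all far below BMDM.

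H2-Ab1 encodes the beta chain of an MHC class II molecule, which presents peptides to CD4+ T cells. Its peak at chr17:34270076-34271414, 1806 bp downstream, held 46.8, 86.9 and 76.8 in MG against 540, 383 and 268 in BMDM, a difference of 2.61 (SE 0.37, limma adjusted p = 0.026). It was the tallest of the 12 peaks named for a gain in BMDM. Plcg1 encodes a phospholipase C that acts below receptor tyrosine kinases, and its peak 1800 bp downstream held 7.14, 19.7 and 23.3 in MG against 81.3, 97.1 and 101 in BMDM. Stat5b encodes a transcription factor of cytokine receptors, and its peak 2398 bp upstream held 7.14, 35.5 and 14.6 in MG against 117, 111 and 61.6 in BMDM. The group of Stat5b was the more spread in MG, where MG 1 was lowest, and the groups did not overlap in either gene. The other 6 were the peaks of Vps37b, a subunit of the endosomal sorting complex ESCRT-I, Osbpl3, an oxysterol-binding protein, Hemk1, a methyltransferase, Adap1, a GTPase-activating protein for Arf, Ctu1, a tRNA thiolation enzyme, and Gstt4, a glutathione transferase. Their differences ran from 2.56 for Gstt4 to 2.85 for Vps37b.

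The largest differences in favour of MG, among peaks chosen by the same rule, were mostly smaller. They ran from -1.87 for Ago1 to -2.57 for Fat1, against 2.56 for Gstt4 to 3.04 for Fbxl5 in favour of BMDM. Smarcd3 encodes a subunit of the SWI/SNF chromatin remodelling complex. Its peak at chr5:24604441-24605136, 2429 bp upstream, held 335, 326 and 319 in MG against 47.6, 55.7 and 59.8 in BMDM. The libraries of each group were nearly equal, and the difference was -2.44 (SE 0.28, limma adjusted p = 0.026). Fat1 encodes an atypical cadherin, and its peak at chr8:44937200-44938669, 1753 bp downstream, held 196, 409 and 295 in MG against 35.7, 34.3 and 65.2 in BMDM, a difference of -2.57 (SE 0.38, limma adjusted p = 0.026). Ago1 encodes an Argonaute protein that carries small RNAs, and its peak 2405 bp downstream held 129, 117 and 135 in MG against 33.7, 22.7 and 38.0 in BMDM. In all 3 peaks each MG library was above each BMDM library.

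In other flank peaks higher in MG the group was widely spread. The Bik peak at chr15:83535008-83536512, 1464 bp downstream of the start of a pro-apoptotic BCL2 family gene, held 147, 1017 and 466 in MG against 79.3, 60.2 and 87.0 in BMDM. MG 2 was far above MG 1, while the BMDM libraries were close together. The Nfatc2 peak, 2415 bp downstream of the start of a calcineurin-regulated transcription factor gene, held 40.5, 302 and 172 in MG against 13.9, 27.8 and 25.4 in BMDM. The Rtcb peak, in an RNA ligase gene, held 102, 574 and 253 in MG against 53.6, 44.0 and 47.1 in BMDM. In these peaks and those of Fgl1, Bcar1, Atp5g2 and Apbb2, MG 2 was highest and MG 1 lowest of the MG libraries. The Fat1 peak above had the same order. The summed flank counts of neural and glial genes followed the same order, at 583, 1496 and 920 in MG 1 to 3 and 520 to 629 in BMDM, and their part in these results was not tested. Wdr62 and Hspb3, a small heat shock protein, went the other way, with 388, 123 and 231 and with 171, 109 and 106 in MG 1 to 3.

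**Figure D2:**
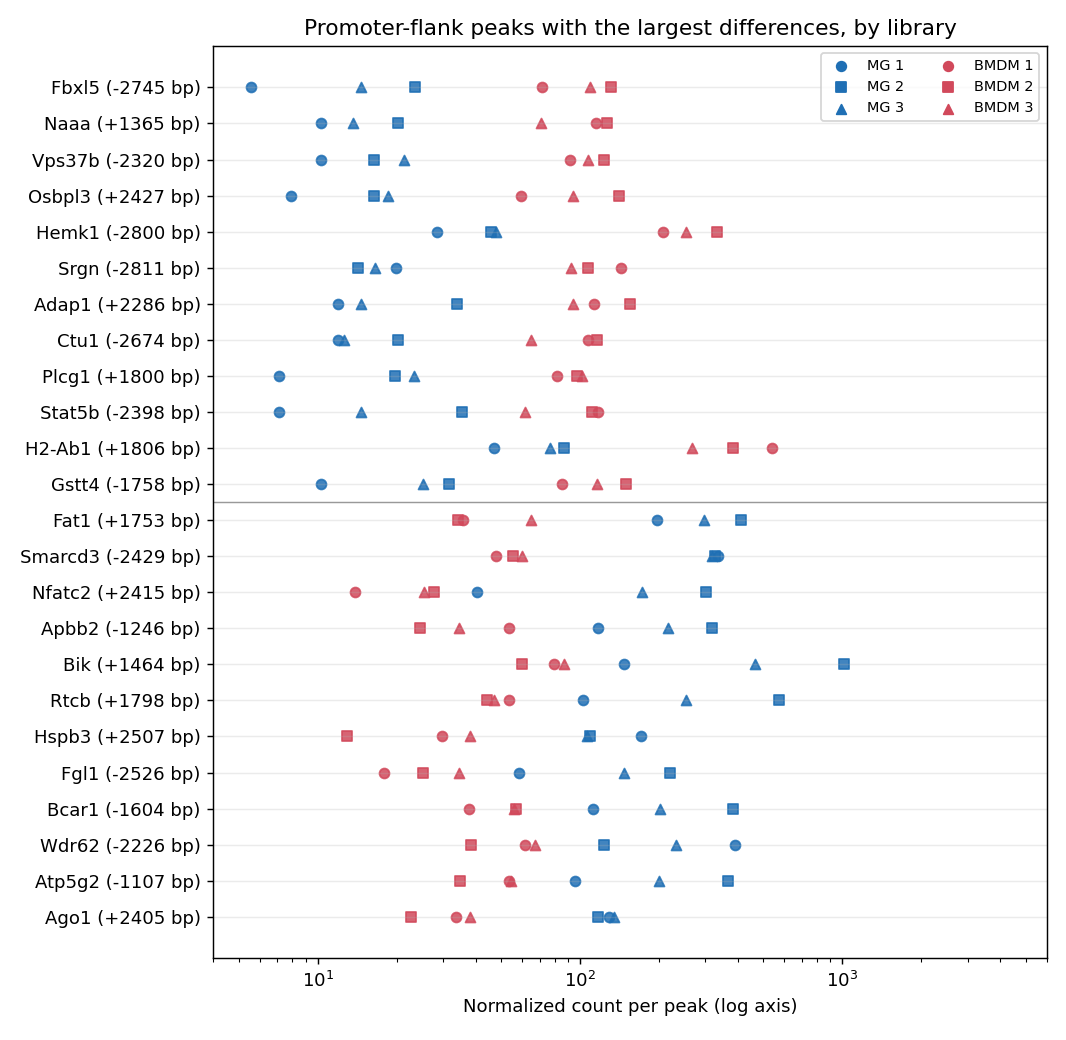
Normalized counts per library (log axis) of the 24 flank peaks with the largest differences, labelled by gene and by distance from the start site in bp, negative upstream. Red symbols are BMDM and blue symbols MG libraries, with 1 symbol shape per replicate number; the groups do not overlap in any peak, and MG runs from 147 to 1017 in Bik and from 40.5 to 302 in Nfatc2.

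Some genes had several called flank peaks. There were 25 genes with 2 flank peaks called higher in BMDM, among them Cd2, Cd38, Il1b, Syk and Trem1. Syk, a kinase of immune receptors, had a peak 1932 bp upstream with 79.3, 84.7 and 58.3 in MG against 313, 344 and 141 in BMDM, and a smaller one at 1706 bp with 9.52, 7.11 and 6.80 against 59.5, 45.3 and 25.4. Hspb3 was the 1 gene with 2 or more peaks called higher in MG. Plcb4 and Wdr62 had peaks called in opposite directions. At Plcb4, a phospholipase C gene, the peak 1648 bp downstream held 68.2, 83.6 and 78.7 in MG against 19.8, 16.2 and 27.2 in BMDM. The peak 2825 bp upstream held 7.93, 4.92 and 3.89 against 31.7, 29.8 and 25.4. At Wdr62 the peak 2226 bp upstream was the one higher in MG, while a peak 2388 bp upstream held 22.2, 26.2 and 31.1 in MG against 73.4, 75.1 and 63.4 in BMDM. These peaks, on chromosome 7, start at 30282645 and 30265035 and so lie near different start sites of the gene, and in neither did the groups overlap.

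Flank peaks of genes that mark the 2 populations lay in opposite directions. The background over all peaks was 5.33% called higher in BMDM and 1.54% called higher in MG. At an unadjusted p under 0.05 by limma, 13486 and 8429 of all 87944 peaks tested passed in these directions. The authors' deposited table called 9.06% and 5.38% of all peaks. These are the backgrounds for the same counts in each list below. Of the 25 tested flank peaks of the microglia identity list, 0 passed as higher in BMDM and 2 as higher in MG, with 0 and 10 at an unadjusted p under 0.05 by limma and 0 and 5 in the authors' deposited table. Their median was -0.54, where the median of all peaks is 0, and 21 of the 25 lay below it. Sparc, a matrix glycoprotein gene, had a peak 1314 bp downstream with 181, 130 and 102 in MG against 27.8, 44.7 and 39.9 in BMDM, a difference of -1.70 (SE 0.35, limma adjusted p = 0.027). Olfml3, a secreted olfactomedin family gene, had a peak 2440 bp downstream with 216, 581 and 379 against 105, 93.2 and 105, a difference of -1.70 (SE 0.38, limma adjusted p = 0.029). The groups were apart in both. At Olfml3 MG 2 was highest and MG 1 lowest of the MG libraries, the order of the summed neural and glial flank counts. The summed counts of the microglia list were highest in MG 1. P2ry12, the purinergic receptor used to mark resting microglia, had 5 flank peaks and none was called. The tallest, 1456 bp downstream, held 476, 196 and 304 in MG against 238, 179 and 163 in BMDM, and these ranges overlapped. Sall1, a microglial transcription factor gene, had a peak 2166 bp downstream with 124, 38.8 and 36.9 in MG against 19.8, 8.42 and 19.9 in BMDM, which did not overlap but did not pass the test (limma adjusted p = 0.072). Tmem119, Cx3cr1 and Gpr34 were among the 14 genes of the list without a flank peak.

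Flank peaks of the monocyte and macrophage identity list lay on the other side. Of 22 tested, 7 were higher in BMDM by the limma call (5.33% of all peaks) and 0 higher in MG (1.54% of all peaks). At an unadjusted p under 0.05 there were 16 and 0, and the median was 1.45. The F10 peak, of the gene for coagulation factor X, held 14.3, 13.7 and 16.5 in MG against 47.6, 113 and 41.7 in BMDM. Clec12a, an inhibitory C-type lectin receptor, held 33.3, 63.4 and 35 against 151, 260 and 99.6. Fpr2, a formyl peptide receptor, Cybb, the oxidase subunit gp91phox, and Ms4a4c also had a called peak. Without MG 1 the list had 14 peaks called higher in BMDM, and without MG 3, BMDM 1 or BMDM 2 it had 0. Ccr2, a chemokine receptor gene used to mark monocytes, had 1 flank peak, with 15.1, 6.01 and 22.4 in MG against 9.92, 36.3 and 23.6 in BMDM, which overlapped.

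Mediators of immune suppression included 7 flank peaks that passed as higher in BMDM and 0 as higher in MG of 26 tested (limma), with 11 and 1 at an unadjusted p under 0.05, and a median of 0.55. Over all peaks 5.33% passed as higher in BMDM and 1.54% as higher in MG. Il10, which encodes the anti-inflammatory cytokine interleukin 10, had a peak at chr1:131022702-131023131, 2857 bp downstream, with 26.2, 48.6 and 25.3 in MG against 165, 211 and 118 in BMDM. The lowest BMDM library was above the highest MG library, and the difference was 2.43 (SE 0.38, limma adjusted p = 0.026). Cd274, which encodes the checkpoint ligand PD-L1, held 38.1, 61.8 and 40.8 in MG against 165, 148 and 90.6 in BMDM, a difference of 1.62 (limma adjusted p = 0.039). Arg2, the mitochondrial arginase, held 82.5, 94.0 and 62.2 against 264, 373 and 165. Lilrb4a, an inhibitory receptor, held 187, 120 and 125 against 670, 572 and 333, and Il1rn, the interleukin 1 receptor antagonist, held 46.8, 64.5 and 48.6 against 262, 231 and 120. Trem1, an activating receptor of myeloid cells that is in this list and in the neutrophil list, was called at 2 flank peaks. None of these groups overlapped. The Arg1 peak 2714 bp upstream held 51.6, 31.2 and 28.2 in MG against 111, 55.0 and 52.5 in BMDM and did not pass the test (limma adjusted p = 0.19).

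The glycolysis and histone acylation lists held 1 or 0 calls in each direction, against a background over all peaks of 5.33% in favour of BMDM and 1.54% in favour of MG. Of 22 glycolysis and lactate flank peaks 1 was higher in BMDM by the limma call and 0 higher in MG, with 3 and 1 at an unadjusted p under 0.05, and the median was 0.09. The called peak, 2605 bp downstream of the start of Pfkp, the platelet-type phosphofructokinase gene, held 26.2, 46.5 and 37.9 in MG against 129, 208 and 111 in BMDM, a difference of 2.11 (SE 0.37, limma adjusted p = 0.026). The flank peak of Slc2a1, the glucose transporter GLUT1 gene, held 126, 529 and 309 in MG against 224, 227 and 158 in BMDM, and that of Ldha, a lactate dehydrogenase gene, held 179, 353 and 235 against 226, 175 and 158. Both overlapped between groups, with MG 2 highest. Of 14 flank peaks of lysine acyltransferases and deacylases 1 was called in each direction. The Hdac7 peak held 20.6, 28.4 and 20.4 in MG against 83.3, 124 and 43.5 in BMDM, and the Hdac5 peak held 111, 89.6 and 85.5 against 35.7, 36.3 and 27.2. Both genes encode class II histone deacetylases, and in neither did the groups overlap. The Ep300 peak, of the acetyltransferase p300 gene, held 34.1, 19.1 and 26.2 against 13.9, 14.9 and 34.4 and overlapped.

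For hypoxia genes 0 of 10 flank peaks were called in either direction by limma, with 2 and 3 at an unadjusted p under 0.05 in favour of BMDM and MG and 0 and 2 in the authors' deposited table. The Adm peak, of the adrenomedullin gene, held 564, 681 and 482 in MG against 294, 286 and 196 in BMDM (limma adjusted p = 0.052). The Ndrg1 peak held 12.7, 14.8 and 21.4 against 45.6, 58.9 and 29.0 (limma adjusted p = 0.080). These 2 peaks, each without overlap, lay in opposite directions. For the unfolded protein and integrated stress response 0 of 11 were called by limma, with 0 and 1 at an unadjusted p under 0.05 and 0 in the authors' deposited table, and the median was -0.51. The Herpud1 peak, of an endoplasmic reticulum stress gene, held 81.7, 53.0 and 62.2 in MG against 27.8, 36.3 and 19.9 in BMDM.

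The immune effector lists held 2 or 3 flank peaks each that were called higher in BMDM, where 5.33% of all peaks were. For antigen presentation 3 of 14 flank peaks were called higher in BMDM, those of H2-Ab1, H2-Eb1 and Tap2, a subunit of the peptide transporter TAP, with a median of 0.83. For cytokines and chemokines 3 of 21 were called higher in BMDM. Il1b, which encodes interleukin 1 beta, held 44.4, 45.9 and 52.5 in MG against 222, 317 and 170 in BMDM at its peak 2820 bp downstream, a difference of 2.38 (SE 0.32, limma adjusted p = 0.026). The MG libraries were nearly equal and well below BMDM. Lif, a cytokine of the interleukin 6 family, held 4.76, 19.7 and 17.5 against 61.5, 97.1 and 48.9. For phagocyte receptors and the oxidase 3 of 26 were called higher in BMDM, those of Fcgr2b, the inhibitory Fc receptor, Cybb and Ncf4. For lipid handling 3 of 16 were, those of Npc2, which moves cholesterol out of lysosomes, the scavenger receptor Msr1 and the lipoprotein receptor Lrp1. For interferon response 2 of 18 were, those of Ifnar1 and Oasl1, and for adhesion 3 of 21, among them that of Cd44. In these 6 lists limma called 0 peaks higher in MG, with 0 or 1 per list at an unadjusted p under 0.05. As 1.54% of all peaks were called higher in MG, a count of 0 in lists of this size is near that background.

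Transcription factor genes made up the list with the most flank peaks, and their calls were near the 5.33% of all peaks higher in BMDM and the 1.54% higher in MG. Of 55 tested peaks of myeloid transcription factors 4 were higher in BMDM by the limma call and 0 higher in MG, with 9 and 3 at an unadjusted p under 0.05, and the median was 0.16. Nfkb1, the NF-kB p105 subunit gene, held 30.9, 32.3 and 36.0 in MG against 131, 166 and 132 in BMDM, a difference of 2.21 (SE 0.30, limma adjusted p = 0.026). Runx2 held 38.9, 30.1 and 28.2 against 111, 126 and 77.9, and Runx1 held 159, 123 and 134 against 365, 430 and 266. Fosl2, an AP-1 subunit gene, held 16.7, 21.9 and 22.4 against 83.3, 101 and 56.2. All 4 were apart between the groups.

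Peaks of genes that mark other cell types also differed. Of 20 tested flank peaks of the T, NK and B cell list 6 were higher in BMDM by the limma call and 0 higher in MG, with 11 and 0 at an unadjusted p under 0.05 and a median of 1.25. Cd2, an adhesion receptor of T and NK cells, held 3.17, 9.29 and 12.6 in MG against 65.5, 85.5 and 58.0 in BMDM at its peak 1272 bp downstream. The called genes were Cd2 (2 peaks), Cd6, Gata3, Nkg7 and Tbx21, all apart between the groups. Cd3e, Cd3g and Cd8a were among the genes with no flank peak. The Cd4 peak held 3.17, 16.4 and 7.77 in MG against 15.9, 40.1 and 36.2 in BMDM and overlapped. The summed flank counts of the list were 1131 to 1316 in MG and 1321 to 2209 in BMDM. Of 14 neutrophil flank peaks 3 were called higher in BMDM, both of Trem1 and that of Mpo, with sums of 1104 to 1423 in MG and 1357 to 1966 in BMDM, while Ly6g and S100a8 had no flank peak. Above the median of all peaks lay 18 of the 20 T, NK and B cell peaks and 11 of the 14 neutrophil peaks. The peaks of Cd7 (-0.64) and Csf3r (-0.73) were among those below it. Most peaks of these lists thus moved with the calls higher in BMDM, and their part in the results was not tested.

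Of 19 neural and glial flank peaks 1, that of Mbp, was higher in BMDM by the limma call and 0 higher in MG, with 1 and 6 at an unadjusted p under 0.05 and a median of -0.67. Olig2, a factor of the oligodendrocyte lineage, held 53.9, 234 and 118 in MG against 45.6, 46.6 and 67.0 in BMDM, and the Gfap peak 1154 bp upstream, of the astrocyte filament gene, held 1.59, 73.2 and 38.9 against 13.9, 13.6 and 25.4. MG 2 was highest in both and the groups overlapped. Of 10 endothelial peaks 2, those of Pecam1 and Vwf, were called higher in BMDM, with sums of 430 to 631 in MG and 476 to 605 in BMDM. Of 11 dendritic cell peaks 1, that of Tcf4, was called higher in MG, with sums of 624 to 993 and 424 to 555. Of 23 flank peaks of axon guidance and neurite genes Nav1 was called higher in BMDM and Nrp2 higher in MG. The background over all peaks was 5.33% higher in BMDM and 1.54% higher in MG. Lists of 10 to 23 peaks are too small for 1 call to stand apart from it.

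**Figure D3:**
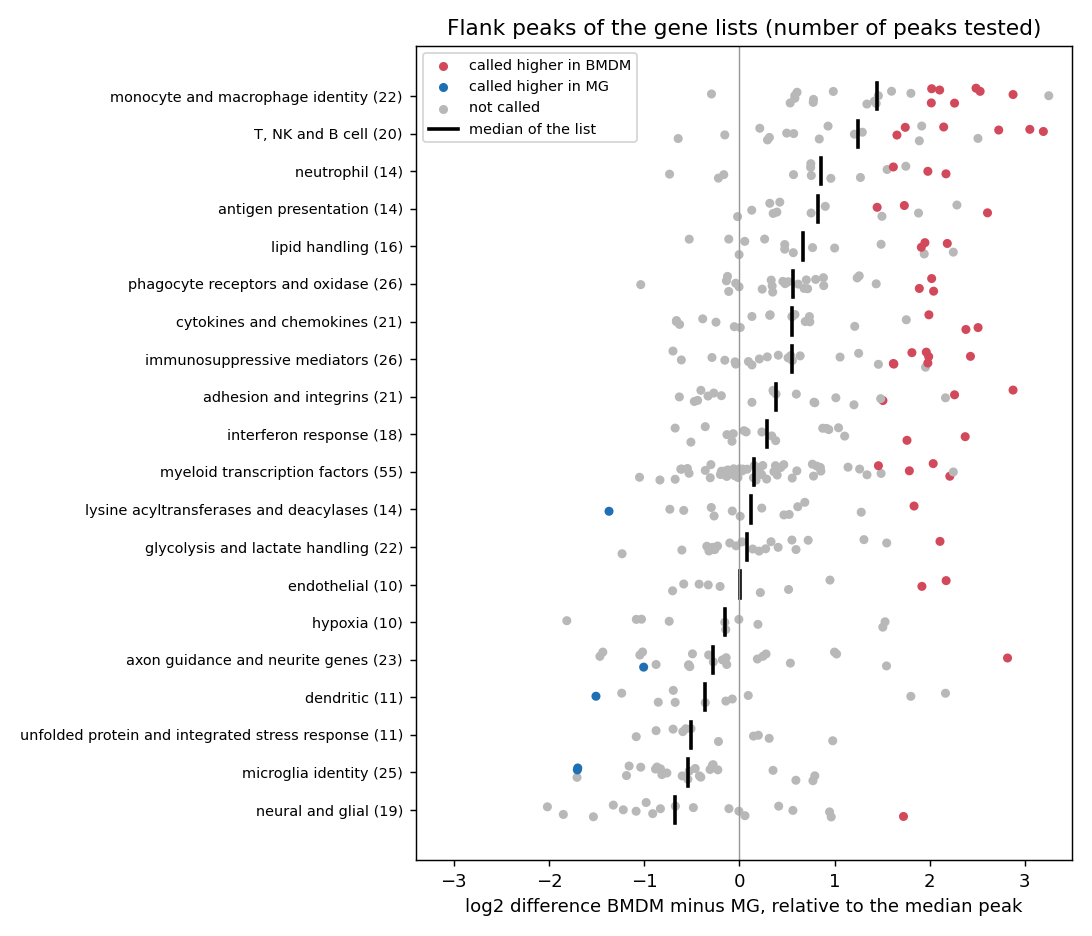
Each point is 1 tested flank peak of a gene list, placed at its log2 difference BMDM minus MG relative to the median of all peaks; the number of peaks is in parentheses, red and blue points passed the limma test and black bars are list medians. Medians run from -0.67 for neural and glial genes to 1.45 for monocyte and macrophage identity.

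None of the 6 tallest flank peaks passed the test in the main fit, while Kdm6b and Mllt6 passed under another scaling, given below. Kdm6b, which encodes a histone H3 lysine demethylase, had the highest mean, at chr11:69408634-69412139, with 6561, 3459 and 4137 in MG against 6870, 4671 and 3188 in BMDM. Junb, an AP-1 subunit gene, held 5085, 2103 and 2851 against 3519, 2150 and 1634, and Fos, another, held 4585, 1460 and 2017 against 2688, 1197 and 900.4. Within each group the first library was highest in all 3. Mllt6, H3f3b, a histone H3.3 gene, and Fam71a completed the 6 tallest, all with overlapping groups and limma adjusted p from 0.43 for Fos to 0.97 for Kdm6b. These peaks are 1988 to 3529 bp wide.

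The genes with the most flank peaks had several annotated transcripts, and the table gives the distance to the nearest start among them. Epb41l2, a gene of a membrane skeleton protein, had 10 flank peaks near 9 transcripts, with differences from -1.06 to 0.13 and none called. Macf1, which links actin and microtubules, also had 10 near 9 transcripts, of which 1 was called higher in MG. Mtus1 had 9, with none called. Fnbp1, Septin9 and Sgms1 had 8 each. Sgms1, a sphingomyelin synthase gene, had 2 called higher in BMDM, and 7 of its 8 lay above the median peak.

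The flank was then compared with the start-site peaks of the same gene, by the log2 ratio of the summed flank count to the summed start-site count in each library. Over 4622 genes with both, the ratio was higher in BMDM for 207 (4.48% of genes tested) and higher in MG for 39 (0.844%) at a limma adjusted p under 0.05. The median difference of the ratio was 0.19 in favour of BMDM, and it was positive for 62.7% of genes. Scaling between libraries cancels in this ratio, but a library-wide difference between flank and start-site peaks does not. The test did not centre the ratio on its median. Start-site peaks took 63.5%, 56.4% and 60.7% of the reads in peaks in MG 1 to 3. In BMDM 1 to 3 they took 59.6%, 55.8% and 52.5%. The part of these shares in the 207 and 39 calls was not tested. The flank sums had a median difference of -0.12 and the start-site sums one of -0.31, both before the shift to the median peak, as are all differences in this comparison. Of the 207 genes 175 had a higher flank and a lower start site in BMDM, 24 were higher at both and 8 lower at both. Of the 39, 27 had a lower flank and a higher start site. Across the 4622 genes the flank and start-site differences correlated at r = 0.47, a description across genes that share the libraries. By library the median log2 ratio was -2.44, -2.12 and -2.24 in MG 1 to 3 and -2.16, -2.02 and -1.77 in BMDM 1 to 3, so that MG 2 stood within the BMDM range. Without MG 1 the counts were 381 and 176, and without MG 3, BMDM 1, BMDM 2 or BMDM 3 they were 0 and at most 1, with 557 to 787 and 110 to 233 genes at an unadjusted p under 0.05.

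Neo1 encodes neogenin, a receptor for netrins and repulsive guidance molecules. Its flank held 41.3, 32.3 and 18.5 in MG against 67.4, 86.8 and 59.8 in BMDM, while its start-site peaks held 439, 479 and 441 against 77.4, 73.8 and 90.6. Flank and start site were each free of overlap, in opposite directions, and the ratio differed by 3.73 (SE 0.42, limma adjusted p = 0.016). At Naaa the flank held 10.3, 20.2 and 13.6 in MG against 115, 126 and 70.7 in BMDM, while the start site held 1129, 1423 and 1153 against 861, 817 and 563. The ratio differed by 3.49 (SE 0.36, limma adjusted p = 0.014), again with opposite directions. Zfp473, a zinc finger gene, showed the same arrangement, with a flank of 7.14, 8.75 and 10.7 against 39.7, 68.6 and 67.0 and a start site of 209, 239 and 222 against 129, 177 and 109. Ppef2 and Map1b, a neuronal microtubule gene, had start-site peaks that were wide apart within MG, at 11.9, 154 and 72.9 and at 44.4, 390 and 195. In both MG 2 was highest and MG 1 lowest, as in the summed neural and glial flank counts. Gpx8, a peroxidase of the endoplasmic reticulum, had a flank of 2.38, 15.9 and 9.72 in MG against 27.8, 55.0 and 41.7 in BMDM.

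Of the genes with a ratio higher in MG, 6 are described here. At Pglyrp1, which encodes a peptidoglycan recognition protein of neutrophil granules, the start site held 41.3, 12.6 and 36.0 in MG against 119, 71.9 and 107 in BMDM. Its flank held 175, 191 and 191 against 79.3, 113 and 121, so that the flank was the taller part in MG, and the ratio differed by -2.67 (SE 0.49, limma adjusted p = 0.029). At Sdcbp2, a syntenin gene, the flank held 309, 394 and 326 against 282, 282 and 205 and the start site 13.5, 27.3 and 38.9 against 105, 113 and 81.5, a difference of -2.41 (SE 0.33, limma adjusted p = 0.018). Muc1, a transmembrane mucin gene, had a start site of 16.7, 45.4 and 36.0 in MG against 208, 201 and 228 in BMDM, while its flank overlapped between groups. At Lrrk2, a kinase gene linked to Parkinson's disease, the flank held 40.5, 529 and 284 in MG against 23.8, 24.0 and 30.8 in BMDM and the start site 59.5, 478 and 242 against 184, 168 and 129, so that MG 2 exceeded MG 1 in both. Slx4 and Plcd3 had start-site means of 5.43 and 5.07 in MG, near the limit of 3 reads, which is 1.64 to 2.92 normalized counts in the MG libraries.

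**Figure D4:**
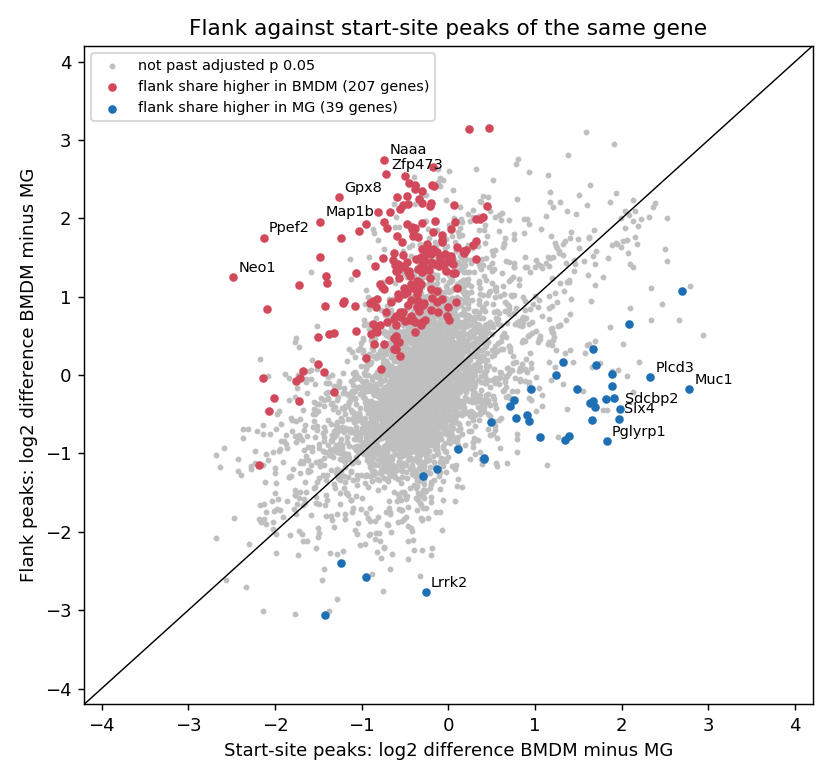
Each point is 1 of 4622 genes, with the log2 difference BMDM minus MG of its summed start-site peaks on the horizontal axis and of its summed flank peaks on the vertical axis, before the shift to the median peak; the line marks equal differences. Red points (207 genes) lie above the line and blue points (39 genes) below it, and most red points have a positive flank and a negative start-site difference.

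The share of all reads in peaks that fell in flank peaks was 5.76% ± 0.17 in MG and 6.16% ± 0.31 in BMDM (SD, n = 3 each). The ranges overlapped, 5.65% to 5.95% against 5.84% to 6.45%, and the difference of 0.40 percentage points did not pass a two-sided exact permutation test (p = 0.2, where 3 against 3 cannot go below 0.10). Start-site peaks took 60.2% ± 3.56 in MG and 56.0% ± 3.53 in BMDM (exact permutation p = 0.2).

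Each library also has its own peak list, deposited by the authors. A peak of that list overlapped 48.4%, 69.4% and 46.2% of the flank peaks in MG 1 to 3 and 27.1%, 51.2% and 9.16% in BMDM 1 to 3. The shares fell in the same order as the reads in peaks, and they were not tested. Of the 8156 flank peaks 663 (8.13%) were in all 6 lists, 2531 (31.0%) in 1 list and 824 (10.1%) in none. Of the 417 peaks called higher in BMDM 247 (59.2%) were in at least 1 BMDM list and no MG list, against 10.8% of all tested flank peaks. Of the 90 called higher in MG 43 (47.8%) were in at least 1 MG list and no BMDM list, against 36.0%. A stricter criterion asked for all 3 lists of 1 group and none of the other. It held for 28 of the 90 in MG (31.1%), against 5.08%, and for 8 of the 417 in BMDM (1.92%), against 0.114%. The lists and the counts come from the same reads, so these shares are not independent of the calls.

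**Figure D5:**
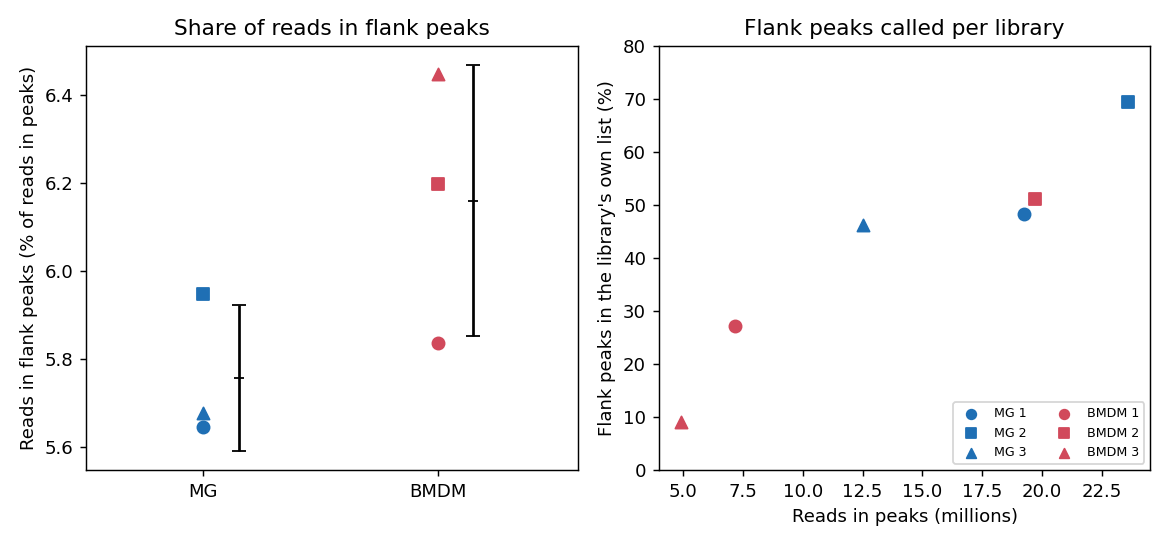
Left, percent of each library's reads in peaks that lie in flank peaks, with bars for the mean ± SD of 3 libraries (axis does not start at 0); right, percent of flank peaks overlapped by the library's own peak list against its reads in peaks, in units of 1e+06. The groups overlap on the left, and on the right the share runs from 9.16% in BMDM 3, the shallowest library, to 69.4% in MG 2, the deepest.

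The authors' deposited table gives its own fold changes for the same peaks. It called 689 flank peaks higher in BMDM (8.45%, against 9.06% of all peaks) and 377 higher in MG (4.62%, against 5.38%). All 417 and all 90 limma calls were also called there, from the same libraries. The authors' deposited table also holds a second comparison with 1 value per gene, whose assay and direction it does not name. In the authors' deposited table that comparison was positive and past an adjusted p of 0.05 for 72 of 321 genes with a flank peak called higher in BMDM (22.4%), and negative for 10, where 5.46% of all annotated genes were positive and 4.04% negative. It was negative for 14 of 68 genes with a flank peak called higher in MG (20.6%), and positive for 2. Of all 4296 genes with a tested flank peak, 7.73% were positive and 5.66% negative in the authors' deposited table. Il10 stood at a log2 value of 4.83 and F10 at 5.66 in the authors' deposited table, and Sparc at -3.63 and Olfml3 at -2.14. Plcg1 at -1.59, Ctsd at -1.78 and Elmo1 at -1.62 in the authors' deposited table were negative while their flank peaks were higher in BMDM. These 3 genes, a phospholipase, a lysosomal protease and an engulfment adaptor, were chosen after their values were seen.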

How the data were processed

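ATAC-seq was measured in 3 MG and 3 BMDM libraries, grouped and numbered by the labels. Per the submitters' processing notes the authors worked on build mm10 with DESeq2 1.36.0, ChIPseeker 1.32.1, MACS2 2.1.1.20160309, Bowtie2 2.4.1 and cutadapt 1.8.1. Their settings, read shifting and duplicate removal were not given in the sources used here. In the deposited table the authors give variance-stabilized log2 values per library and, per the file headers, a mean normalized signal, log2 fold change, p-value and adjusted p-value per peak. The deposited peak lists hold, by the authors' caller, a fold enrichment, a score, a −log10 p and a −log10 q per peak, and only the −log10 q was used, to filter. For 8 further per-sample columns no sample matched, so they stayed unused. Among the 93084 lines 155 repeated a peak and 65 peaks had no annotation.

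Inverting the stabilization gave normalized counts within 2.37e-06 of the deposited means, and whole reads (within 0.02 read) for 100% of values in each library, to 3 significant digits. Reads in peaks ran from 4910448 to 23601865 per library. A count of 3 reads, the limit used for a count of 0, is 1.64 normalized counts in MG 2 and 5.95 in BMDM 1. It covers counting error only, since PCR reads are not independent molecules.

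The plan was a count test for raw counts or limma for normalized ones, and the deposited values are normalized. A limma model with a mean-variance trend (limma 3.58.1 under R 4.3.3) was therefore fitted to log2(normalized count + 1) over all 87944 peaks with a mean of at least 10, BMDM minus MG, and p-values were adjusted by Benjamini-Hochberg over all of them at a threshold of 0.05. A fold change on this scale understates the change of low peaks. The same model was fitted to the log2 ratio of flank to start-site counts over all genes with both. Read shares were compared by an exact permutation test (SciPy 1.17.1). The code was tested on simulated data. Named peaks were the 12 with the largest difference in each direction among called peaks of at least the median flank count whose groups did not overlap, up to 4 called peaks per gene list by smallest p (the 2 with the smallest p where none was called), the 6 tallest peaks, the genes with the most flank peaks and 6 genes per direction in the comparison with start sites. Other genes are named as members of the 20 gene lists, as genes with several called peaks, or for their sequence. Some genes that the rule named are not reported here. Members and lists were chosen with earlier results of these data known. Alternatives were other scalings, filters, pseudocounts, voom on the recovered reads, the deposited values, robust moderation, the replicate number as a block and each library left out. The labels do not say what a replicate number marks, and same-numbered libraries deviated together in some pairs only. The numbers were therefore not treated as pairing in the main fit. Sequences are from RefSeq (GRCm38.p6), without chromosome 18, and no genome sequence was used.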

Additional observations from a re-analysis of the deposited data

How the results depend on the processing

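The numbers of flank peaks called in favour of BMDM and of MG, 417 and 90, changed most with the libraries used. Leaving out 1 library gave from 0 to 911 higher in BMDM and from 0 to 941 higher in MG. Library totals gave 647 in favour of BMDM and 61 in favour of MG, and with cyclic loess 633 and 156. With voom (limma on the recovered reads) 0 and 0 were called, with 1182 and 631 at an unadjusted p under 0.05, and the smallest adjusted p over all peaks was 0.0505. The causes were not tested. Centring each library on its median peak, an alternative chosen after seeing the data, gave 464 and 95. The median flank difference before the shift, -0.12, turned to 0.067 with library totals, where it was again 0.02 above the median of all peaks, and ran from -0.15 to -0.053 without 1 library. The counts of genes by flank to start-site ratio, 207 and 39, ran from 0 to 381 and from 0 to 176 without 1 library, and the 1 gene left without MG 3 was Sdcbp2. Apart from the replicate block, given below, other alternatives kept these 4 counts within 1.5 times.

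Of the 67 named peaks that were called, 9 lost the call with library totals, 4 with cyclic loess, 5 with the deposited values, 32 without BMDM 3, 1 without MG 2, none without MG 1 or with a pseudocount of 0.5 or 5, and all 67 with voom and without MG 3, BMDM 1 or BMDM 2. No named call changed sign. Among the tallest peaks, which were not called in the main fit, the signs of Kdm6b (-0.24 to 0.32 without 1 library), Mllt6 (-0.080 to 0.53) and Fam71a (-0.68 to 0.18, and 0.017 with cyclic loess) turned. With cyclic loess Kdm6b (0.33, limma adjusted p = 0.019) and Mllt6 (0.51, limma adjusted p = 0.012) were called higher in BMDM.

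The labels number the libraries of both groups 1 to 3. Deviations of same-numbered libraries over all peaks correlated at 0.44, -0.06 and 0.36. MG 1 and MG 3 matched the BMDM library of their own number best, and MG 2 did not. The labels do not say what a number marks, so whether the libraries are paired cannot be decided. The replicate block gave 801 flank peaks in favour of BMDM and 407 in favour of MG, and 334 and 79 genes by the ratio. No named call was lost under the block. Depth limits BMDM 1 and BMDM 3 most, where 3 reads are 5.95 and 5.43 normalized counts.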
